A study of Arabidopsis thaliana with 6 samples.

Results

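Transcript levels of 51 nuclear genes for photosynthesis were followed in Arabidopsis thaliana seedlings of 3 genotypes. The genes were chosen by gene ID from the 32548 rows of the expression table. They are 6 genes for the antenna of photosystem I, 15 for the antenna of photosystem II, 4 for the Rubisco small subunit, 12 for the photosystem I core, 10 for other photosystem II proteins and 4 for electron transport and ATP synthase. All 51 had a row, and 50 passed the filter of at least 1 normalized count in at least 2 libraries. The remaining gene, LHCB1.5, was at 0 throughout and is described with the LHCB1 genes.

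The hac1hac5 seedlings are double mutants (hac1-/-hac5-/-) of 2 genes for CBP/p300-type enzymes that acetylate histones. The med8med25 seedlings are double mutants (med8-/-med25-/-) of 2 genes for subunits of Mediator, through which transcription factors reach RNA polymerase II. Col-0 is the wild type. All were 12 days old, were grown on MS plates at 22 °C with 16 h of light and 8 h of dark, and had no treatment. Each genotype had 2 libraries of total RNA from whole seedlings, sequenced as single reads of 50 bases. Whether same-genotype libraries come from plants grown apart is not in the labels. The p-values therefore reflect only the spread of these samples, which may be technical. For each gene that spread was partly taken from other genes of like level.

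Light is captured by antenna proteins that bind chlorophyll, named LHCA around photosystem I and LHCB around photosystem II. Photosystem II takes electrons from water, the cytochrome b6f complex and plastocyanin carry them to photosystem I, and the proton gradient drives ATP synthase. Rubisco fixes carbon dioxide with chloroplast-encoded large subunits and nuclear-encoded small subunits. The nuclear genes of this machinery are among the most strongly transcribed genes of green tissue, and light, chloroplast signals and development are known to act on their transcription.

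The libraries held 33.9 and 36.8 M reads in hac1hac5, 24.9 and 32.3 M in med8med25, and 36.2 and 33.1 M in Col-0, as recovered from the deposited values. MED8 was at 307.1 and 322.9 normalized counts in med8med25, against 846.6 and 855.3 in Col-0, and MED25 was at 253.8 and 302.4 in med8med25, against 1236 and 1227 in Col-0. HAC1 was at 2342 and 2875 in hac1hac5, against 3385 and 3529 in Col-0, and HAC5 at 800.7 and 1087 in hac1hac5, against 1233 and 1190 in Col-0. Of these 4 genes, MED8, MED25 and HAC1 were called lower in the mutant named for them, and HAC5 was not called (log2 change -0.38, adjusted p = 0.05). The HAC1 call (-0.41, adjusted p = 0.011) was lost without either Col-0 library or the first hac1hac5 library (-0.56 to -0.27) and with equal totals. A mutated gene can still give reads, so the HAC levels are only a partial check of the hac1hac5 label.

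The 50 measured genes spanned a wide range of levels, which are given here per kb of annotated exon. LHCB1.3, a gene for the major antenna protein of photosystem II, had the highest mean, with 421324 normalized counts per kb in hac1hac5, 274317 in med8med25 and 473724 in Col-0. RBCS1A, for the Rubisco small subunit, came next in the Col-0 order with 254703 in hac1hac5, 333008 in med8med25 and 417651 in Col-0. In med8med25 the order of these genes was the reverse. At the low end LHCB7, a rarely made antenna protein, had 668 per kb in hac1hac5, 493 in med8med25 and 579 in Col-0. LHCB4.3, a weakly expressed gene for the antenna protein CP29, was the lowest with 47.8 per kb in hac1hac5, 95.5 in med8med25 and 223 in Col-0.

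**Figure D1:**
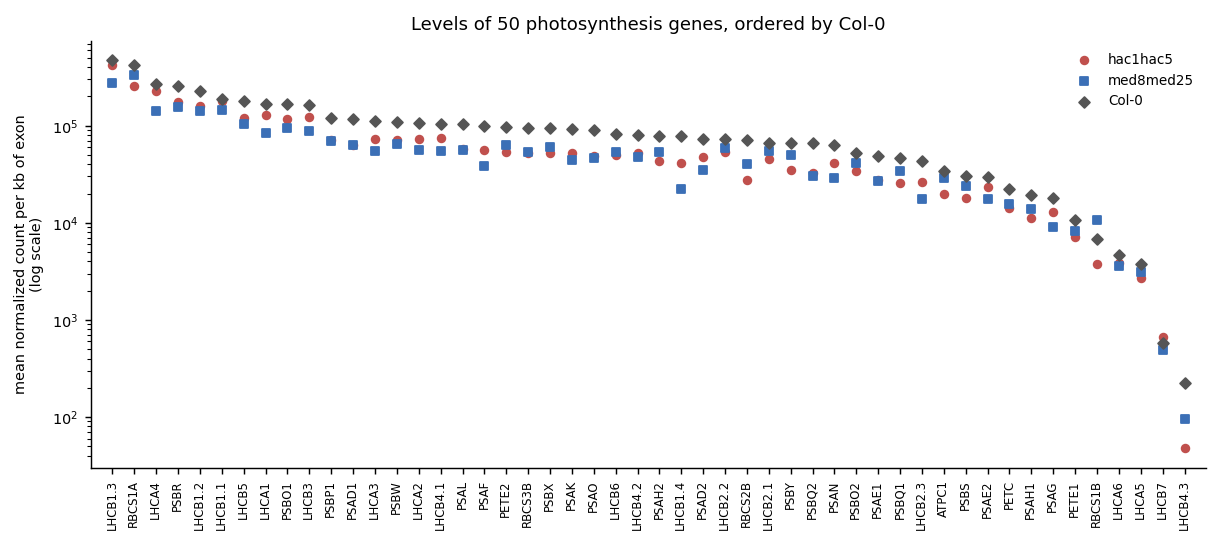
Mean normalized count per kb of exon (log scale) of 50 photosynthesis genes in hac1hac5 (circles), med8med25 (squares) and Col-0 (diamonds), ordered by the Col-0 level; each symbol is the mean of 2 libraries. LHCB1.3 stands first at 473724 per kb in Col-0 and LHCB4.3 last at 223, and RBCS1B is a gene whose med8med25 symbol lies above its Col-0 symbol.

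The main comparison asked how these genes differ between each double mutant and the wild type. Most of them were lower in both mutants. In hac1hac5, 41 of 50 genes were called lower and 0 higher at a limma adjusted p under 0.05, where 21% of all 23898 genes tested were called lower and 17.4% higher (38.4% in all). In med8med25, 40 were called lower and 1 higher, where 14.3% of all genes tested were called lower and 12.3% higher (26.6% in all). The median log2 change of the 50 genes was -0.65 in hac1hac5 and -0.77 in med8med25, beside -0.02 and 0.00 over all genes tested. Standard errors of the genes' log2 changes ran from 0.07 to 0.29. They partly follow the level of the gene, and LHCB1.3 and RBCS1A, of very high level, had large ones (0.29 and 0.28). A gene not called at such levels is thus not shown to be unchanged.

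Other genes of high expression were also called lower more often than genes as a whole. Among 324 other genes with a mean of at least 10000 normalized counts, 55.2% were called lower in hac1hac5 and 29.9% in med8med25. Both hac1hac5 libraries were below both Col-0 libraries for 48 of the 50 photosynthesis genes, where this held for 39.2% of all genes tested. Both med8med25 libraries were below both Col-0 libraries for 49 of the 50, where this held for 33.2% of all genes tested. RNA from whole seedlings was measured, so fewer green cells and less of these RNAs per cell cannot be told apart.

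Both mutants were set against the same Col-0 libraries, so their lists of lower genes are not independent. A total of 35 genes were called lower in both mutants. The share of all genes tested called lower in both was not counted, so this number has no background beside it. LHCB2.1, LHCB2.2, PSBO2, PSBY and ATPC1 were called lower in hac1hac5 and not called in med8med25. LHCA1, LHCA4, LHCB1.2, LHCB3 and PSBO1 were called lower in med8med25 and not called in hac1hac5. Between the mutants, PSBY, ATPC1, LHCA1 and LHCA4 of these genes were called. LHCB2.1, LHCB2.2, PSBO2, LHCB1.2, LHCB3 and PSBO1 were not, so their split is not a called difference between the mutants. RBCS1B was called lower in hac1hac5 and higher in med8med25, and LHCB1.1, LHCB1.3, LHCB7 and RBCS1A were called in neither. These lists depend on the fit. With limma voom, 46 of the 50 genes were called lower in hac1hac5, LHCA1 among them (-0.41, adjusted p = 0.012). In med8med25 voom called 5 genes more than the main fit. A fit of only the 2 genotypes compared also gave 46 lower in hac1hac5.

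**Figure D2:**
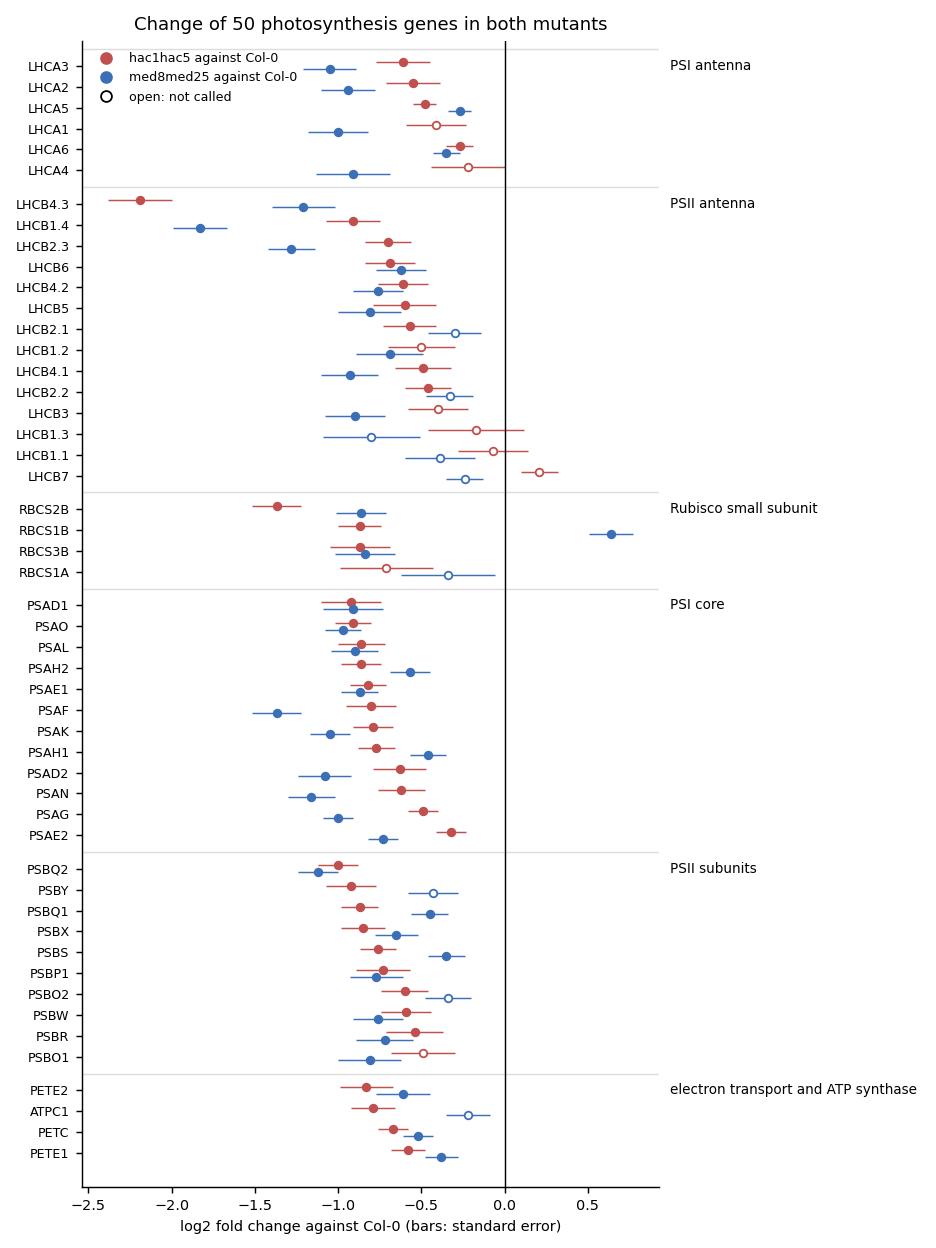
Log2 fold change against Col-0 (x axis, bars are standard errors) of 50 photosynthesis genes grouped by class, for hac1hac5 (red) and med8med25 (blue); filled symbols were called by limma and open ones were not. Nearly all symbols lie left of 0, RBCS1B in med8med25 lies at 0.64, and LHCB4.3 in hac1hac5 lies farthest left at -2.19.

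The counts of calls depended on single libraries more than the changes did. With Col-0 library 1 left out, 25 genes were called lower in hac1hac5 and 15 in med8med25, and with Col-0 library 2 left out 20 and 12. Without the first or second hac1hac5 library, 30 and 30 were called lower in hac1hac5, and without the first or second med8med25 library, 45 and 40 were called lower in med8med25. The median log2 change of the 50 genes stayed between -0.67 and -0.63 in hac1hac5 and between -0.89 and -0.64 in med8med25 when any 1 library was left out. Calls held without each library in turn for 20 of 41 genes in hac1hac5 and 12 of 41 in med8med25. Rescaling the libraries to equal totals moved the median of all genes to 0.16 in hac1hac5 and 0.15 in med8med25, and the share of higher calls among all calls was then 67.7% and 72.6%, beside 45.3% and 46.1%. The 50 genes lay 0.63 below the all-gene median in hac1hac5 under both scalings, and 0.76 and 0.77 below it in med8med25 under equal totals and the authors' scaling. Rescaling shifts all genes of a library alike, so this gap could hardly change and is no check of the result.

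Summed over all 51 genes, the signal was 4.16 and 4.13 M normalized counts in the hac1hac5 libraries, 3.98 and 3.31 M in med8med25, and 5.97 and 6.13 M in Col-0. These sums were 13.6% and 13% of all deposited signal in hac1hac5, 12.1% and 10.9% in med8med25, and 17.1% and 17.2% in Col-0. In every class both libraries of each mutant lay below both Col-0 libraries. The first med8med25 library was above the second for 48 of the 50 genes (96%, with a median log2 difference of 0.24), where it was above it for 47.9% of all genes tested and for 85.8% of the 324 other genes of high expression. The part of this library difference in the results was not tested beyond leaving out each library.

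**Figure D3:**
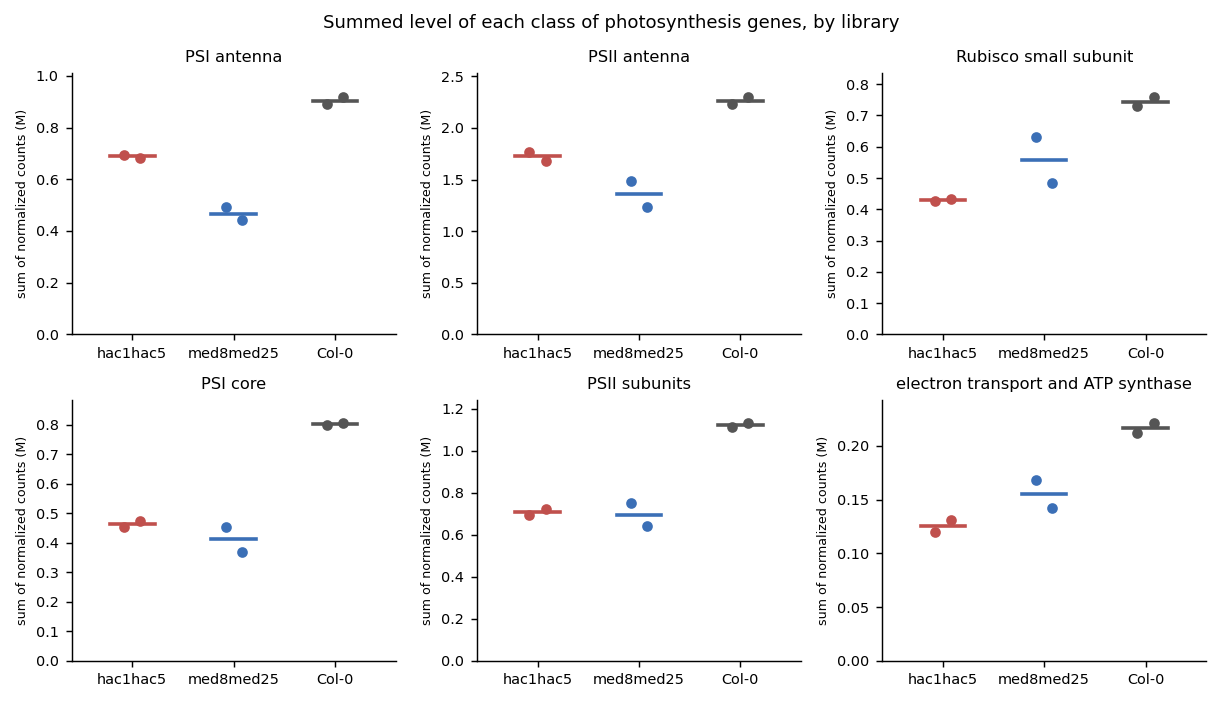
Sum of normalized counts (M) of each class of photosynthesis genes in the libraries of hac1hac5, med8med25 and Col-0; points are single libraries and lines their means. Col-0 is highest in all 6 classes, and the classes differ in which mutant is lower: photosystem I antenna sums are 0.492 and 0.441 M in med8med25 and 0.692 and 0.684 M in hac1hac5, and Rubisco small subunit sums are 0.63 and 0.483 M in med8med25 and 0.427 and 0.433 M in hac1hac5.

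The photosystem I antenna was lower in both mutants, with 4 of 6 genes called lower in hac1hac5 and 6 of 6 in med8med25. LHCA3 (AT1G61520), one of the 4 main antenna proteins of photosystem I, was at 118177 and 120535 normalized counts in hac1hac5, 93376 and 83274 in med8med25, and 180327 and 185241 in Col-0. Its levels did not overlap between any of the genotypes, with log2 changes of -0.61 in hac1hac5 (SE 0.16, adjusted p = 0.017) and -1.05 in med8med25 (SE 0.16, adjusted p = 0.0024). LHCA2 (AT3G61470) was at 105299 and 100889 in hac1hac5, 84366 and 73764 in med8med25, and 150201 and 152060 in Col-0. LHCA1 (AT3G54890) was at 163467 and 161123 in hac1hac5, 114170 and 101017 in med8med25, and 210811 and 219623 in Col-0. Both genes were highest in Col-0 and lowest in med8med25 in every library. LHCA1 was not called in hac1hac5 against Col-0 (-0.41, adjusted p = 0.1). In med8med25 against hac1hac5, LHCA2 (-0.39, adjusted p = 0.079) and LHCA3 (-0.44, adjusted p = 0.06) were not called.

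LHCA4 (AT3G47470), whose protein pairs with LHCA1, was at 298274 and 294095 in hac1hac5, 192165 and 175355 in med8med25, and 339438 and 351627 in Col-0. It was called lower in med8med25 (log2 change -0.91, SE 0.22, adjusted p = 0.017) and not called in hac1hac5 (-0.22, adjusted p = 0.46). LHCA5 and LHCA6, which are known to link photosystem I to the chloroplast NDH complex, had far lower levels. LHCA5 changed by -0.48 in hac1hac5 and -0.27 in med8med25, and LHCA6 by -0.27 in hac1hac5 and -0.35 in med8med25. The LHCA5 call in hac1hac5 was the only call of this class in either mutant that held without each library in turn. Without single libraries the changes of the 6 genes in med8med25 stayed between -1.13 and -0.25.

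The photosystem II antenna had 9 of 14 measured genes called lower in each mutant and 0 called higher. Calls held without each library in turn for 2 of 9 in hac1hac5 and 3 of 9 in med8med25. Its trimeric part is made from the LHCB1, LHCB2 and LHCB3 genes, and its monomeric proteins CP29, CP26 and CP24 from LHCB4, LHCB5 and LHCB6. LHCB1.4 (AT2G34430) was at 55460 and 54112 normalized counts in hac1hac5, 33708 and 24993 in med8med25, and 101320 and 104757 in Col-0. Its libraries formed 3 separate steps, with a 1.88-fold decrease in hac1hac5 (log2 change -0.91, SE 0.16, adjusted p = 0.0023) and a 3.55-fold decrease in med8med25 (-1.83, SE 0.16, adjusted p = 1.5e-04). Both calls held without each library in turn.

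The other LHCB1 genes moved less. LHCB1.3 (AT1G29930) was at 537544 and 498912 in hac1hac5, 378863 and 295958 in med8med25, and 580662 and 584700 in Col-0, and was called in neither mutant (-0.17, adjusted p = 0.67, and -0.80, adjusted p = 0.074). LHCB1.1 had log2 changes of -0.07 in hac1hac5 and -0.39 in med8med25 and was not called. With equal totals LHCB1.1 and LHCB1.3 had positive values in hac1hac5 (0.11 and 0.01), also not called. LHCB1.2 was called lower in med8med25 (-0.69, adjusted p = 0.039) and not in hac1hac5 (-0.50, adjusted p = 0.085).

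LHCB1.1, LHCB1.2 and LHCB1.3 are 95.6% to 96.4% identical over their coding sequence, so reads of 50 bases can be shared or lost among them. Of the possible 50-base windows of their exons, 79.5%, 89.4% and 83% occur once in the genome, and 86.3% of those of LHCB1.4. Summed over the 5 LHCB1 genes, the log2 change was -0.27 in hac1hac5 (SE 0.42, adjusted p = 0.65) and -0.74 in med8med25 (SE 0.42, adjusted p = 0.23). This SE is above those of the single LHCB1 genes (0.16 to 0.29) and partly follows the very high level of the sum. The sum is thus not shown to be unchanged. LHCB1.5 (AT2G34420, chr2:14522524-14523568, minus strand, TAIR10.1) was listed at 0 in all 6 libraries. All 1045 bases of it lie under the annotated antisense RNA gene AT2G08665, which was also at 0 throughout. How the authors treated reads on overlapping genes is not given in the sources used here, so this 0 cannot be read as absence of the transcript.

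Among the LHCB2 genes, which encode the antenna proteins that move between photosystems when they are phosphorylated, LHCB2.3 (AT3G27690) stood apart in med8med25. It was at 38652 and 38624 in hac1hac5, 29206 and 22869 in med8med25, and 61344 and 64133 in Col-0. The decrease was 1.62-fold in hac1hac5 (log2 change -0.70, SE 0.14, adjusted p = 0.0042) and 2.43-fold in med8med25 (-1.28, SE 0.14, adjusted p = 4.1e-04). Without the second Col-0 library LHCB2.3 was not called in hac1hac5 (-0.73 to -0.67 over libraries left out). Its relatives LHCB2.1 and LHCB2.2 had log2 changes of -0.57 and -0.46 in hac1hac5, both called, and of -0.30 and -0.33 in med8med25, neither called. Both hac1hac5 calls were lost without any 1 of the Col-0 or hac1hac5 libraries (-0.64 to -0.50 for LHCB2.1 and -0.52 to -0.39 for LHCB2.2). Both were also lost with a term for the replicate number, and that of LHCB2.2 with median-of-ratios scaling. Of the LHCB2.3 windows, 56.5% are free of other annotated genes, and the overlapping gene AT3G27700 was at 962.9 to 1105 normalized counts in every library. LHCB2.1 and LHCB2.2 are 96.6% identical, and their separate levels are uncertain for that reason.

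LHCB4.3 (AT2G40100) had the largest change of all members in hac1hac5. It was at 68.58 and 69.76 normalized counts in hac1hac5, 155.8 and 120.8 in med8med25, and 280.1 and 364.4 in Col-0. The genotypes did not overlap, with a 4.57-fold decrease in hac1hac5 (log2 change -2.19, SE 0.19, adjusted p = 5.5e-05) and a 2.32-fold decrease in med8med25 (-1.21, SE 0.19, adjusted p = 0.0024). Both calls held without each library in turn, and all windows of the gene are unique. The other CP29 genes, LHCB4.1 and LHCB4.2, changed by -0.49 and -0.61 in hac1hac5 and by -0.93 and -0.76 in med8med25, all called. The LHCB4.1 call in hac1hac5 was lost without any 1 of the Col-0 or hac1hac5 libraries (-0.53 to -0.45) and without the filter. It was also lost with median-of-ratios scaling, with a term for the replicate number and with paralogs summed. LHCB4.3 held 0.0378% and 0.0407% of the CP29 signal in hac1hac5, 0.0996% and 0.0946% in med8med25, and 0.111% and 0.14% in Col-0.

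LHCB5, LHCB6 and LHCB3 had log2 changes of -0.60, -0.69 and -0.40 in hac1hac5, where LHCB3 was not called. In med8med25 the same genes changed by -0.81, -0.62 and -0.90, all called. LHCB7 (AT1G76570) was at 807 and 817.2 in hac1hac5, 534.7 and 663.8 in med8med25, and 731.7 and 675.2 in Col-0. It was the only member above Col-0 in both hac1hac5 libraries, and its log2 change there was not called (0.21, SE 0.11, adjusted p = 0.18).

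The Rubisco small subunit comes from RBCS1A and from a cluster of 3 genes on chromosome 5, RBCS1B, RBCS2B and RBCS3B, whose coding sequences are 96.7% to 97.3% identical. A stretch of coding bases 16 to 75 is printed here for the 3 clustered genes. It was picked as the 60 bases within a single exon at which RBCS1B and RBCS2B differ most (4 positions). It is thus not typical of how close the copies are. Capitals mark the 6 positions at which they are not all alike (RefSeq annotation of TAIR10.1, minus strand, chr5:15385081-15385140, chr5:15381904-15381963 and chr5:15378232-15378291).
RBCS1B: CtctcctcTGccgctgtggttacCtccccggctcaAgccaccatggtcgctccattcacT
RBCS2B: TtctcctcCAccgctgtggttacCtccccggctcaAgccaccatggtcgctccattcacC
RBCS3B: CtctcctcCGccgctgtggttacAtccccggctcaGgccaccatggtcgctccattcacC
RBCS1B and RBCS3B share an identical run of 233 bases, longer than the reads. Of the 50-base windows, 88% are unique for RBCS1B, 83.1% for RBCS2B and 83.5% for RBCS3B.

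RBCS1B (AT5G38430) was the one member called in opposite directions. It was at 6914 and 7310 normalized counts in hac1hac5, 23543 and 17269 in med8med25, and 12697 and 13210 in Col-0. No libraries overlapped between genotypes, and its level was 1.82-fold lower in hac1hac5 (log2 change -0.87, SE 0.13, adjusted p = 0.0014) and 1.56-fold higher in med8med25 (0.64, SE 0.13, adjusted p = 0.01). The higher call in med8med25 was lost without the first Col-0 library (0.61, adjusted p = 0.08) or the second (0.67, adjusted p = 0.064). It was kept at 0.42 without the first med8med25 library and at 0.86 without the second. Against hac1hac5 the med8med25 level was 2.84-fold higher (SE 0.13 on the log2 scale, adjusted p = 9.7e-05), a call that held without each library in turn.

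RBCS2B (AT5G38420), next to RBCS1B on the chromosome, was at 24528 and 27678 in hac1hac5, 42801 and 32354 in med8med25, and 65237 and 69520 in Col-0. It was lowest in hac1hac5, with a 2.58-fold decrease there (log2 change -1.37, SE 0.15, adjusted p = 2.2e-04) and a 1.81-fold decrease in med8med25 (-0.86, SE 0.15, adjusted p = 0.0046), of which the hac1hac5 call held without each library in turn and the med8med25 call did not. RBCS3B (AT5G38410) was at 70022 and 77378 in hac1hac5, 87599 and 64478 in med8med25, and 129714 and 139957 in Col-0. The mutants overlapped and both were below Col-0, though neither call held without each library in turn (-0.87, adjusted p = 0.0059 in hac1hac5, and -0.84, adjusted p = 0.011 in med8med25). RBCS1A (AT1G67090), the most abundant of the 4, was at 325047 and 320882 in hac1hac5, 476089 and 368418 in med8med25, and 522713 and 536450 in Col-0. Every mutant library was below both Col-0 libraries, and neither change was called (-0.71, SE 0.28, adjusted p = 0.073 and -0.34, SE 0.28, adjusted p = 0.4).

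Summed over the clustered genes, the log2 change was -1.01 in hac1hac5 (SE 0.20, adjusted p = 0.0053) and -0.70 in med8med25 (SE 0.20, adjusted p = 0.038). With paralogs summed, no gene was called higher in med8med25, and RBCS1B is a small part of the sum. The sum over the 4 small subunit genes divided by the photosystem I antenna sum was 0.616 and 0.633 in hac1hac5, 1.28 and 1.09 in med8med25, and 0.82 and 0.827 in Col-0. The mutants lay on opposite sides of Col-0 in this ratio, which was not tested.

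All 12 photosystem I core genes were called lower in both mutants. PSAD and PSAE sit at the stromal face where ferredoxin binds, PSAF and PSAN at the side where plastocyanin docks, PSAG and PSAK at the edges, and PSAH, PSAL and PSAO where mobile antenna binds. PSAF (AT1G31330) was at 64582 and 71408 normalized counts in hac1hac5, 51061 and 40871 in med8med25, and 118784 and 117950 in Col-0. It fell 1.74-fold in hac1hac5 (log2 change -0.80, SE 0.15, adjusted p = 0.0039) and 2.59-fold in med8med25 (-1.37, SE 0.15, adjusted p = 5.2e-04). PSAN (AT5G64040) was at 40935 and 43446 in hac1hac5, 32789 and 25651 in med8med25, and 67453 and 62031 in Col-0. In both plastocyanin-side genes the libraries ordered Col-0, hac1hac5, med8med25 with no overlap.

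PSAD1 (AT4G02770) was at 69114 and 73134 in hac1hac5, 84064 and 60505 in med8med25, and 132479 and 136178 in Col-0. Its decrease was 1.89-fold in hac1hac5 (log2 change -0.92, SE 0.18, adjusted p = 0.0046) and 1.88-fold in med8med25 (-0.91, SE 0.18, adjusted p = 0.0076). PSAO (AT1G08380) was at 39160 and 40261 in hac1hac5, 39769 and 36365 in med8med25, and 73917 and 74941 in Col-0, so the mutants overlapped near one level. The remaining 8 genes changed by between -0.86 and -0.32 in hac1hac5 and between -1.08 and -0.46 in med8med25. PSAE1, PSAG, PSAH2, PSAH1, PSAK, PSAL and PSAO kept their hac1hac5 call without each library, and PSAD2, PSAE1, PSAE2, PSAF, PSAG, PSAK, PSAN and PSAO their med8med25 call. The smallest change of the class in hac1hac5, that of PSAE2 (-0.32), lost its call without either Col-0 library (-0.27 and -0.37), without the second hac1hac5 library (-0.26), or with equal totals. PSAG and PSAH1 have 34.5% and 35.6% of their windows free of other annotated genes.

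Of the other photosystem II genes, 9 of 10 were called lower in hac1hac5 and 8 of 10 in med8med25, of which 5 and 1 held without each library in turn. PSBO, PSBP and PSBQ form the oxygen-evolving cap of the complex. PSBQ2 (AT4G05180) was at 41083 and 42604 normalized counts in hac1hac5, 40802 and 36301 in med8med25, and 83967 and 83189 in Col-0. It fell 2-fold in hac1hac5 (SE 0.12 on the log2 scale, adjusted p = 3.6e-04) and 2.17-fold in med8med25 (log2 change -1.12, SE 0.12, adjusted p = 4.4e-04), and both calls held without each library in turn. Its paralog PSBQ1 (AT4G21280) was at 24499 and 26245 in hac1hac5, 36644 and 31617 in med8med25, and 45444 and 47539 in Col-0, with 3 separate levels.

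PSBO1 (AT5G66570) was at 175406 and 182187 in hac1hac5, 154264 and 132435 in med8med25, and 247466 and 253524 in Col-0. It was called lower in med8med25 (-0.81, adjusted p = 0.017) and not in hac1hac5 (-0.49, adjusted p = 0.079). PSBO2 was called lower in hac1hac5 (-0.60, adjusted p = 0.0086) and not in med8med25 (-0.34, adjusted p = 0.1). In med8med25 against hac1hac5 neither PSBO1 (-0.32, adjusted p = 0.21) nor PSBO2 (0.26, adjusted p = 0.15) was called. PSBY (AT1G67740), a small membrane subunit, was at 41098 and 44958 in hac1hac5, 68140 and 53564 in med8med25, and 78801 and 83736 in Col-0. It was called lower in hac1hac5 (-0.92, SE 0.15, adjusted p = 0.0018), with -0.43 in med8med25 (adjusted p = 0.07). PSBS, the sensor protein for dissipating excess light as heat, changed by -0.76 in hac1hac5 and -0.35 in med8med25, and its med8med25 call was lost under 4 other settings besides leaving out libraries. PSBP1, PSBR, PSBW and PSBX changed by between -0.85 and -0.54 in hac1hac5 and between -0.77 and -0.65 in med8med25, all called.

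The 4 genes for electron transport and ATP synthase were all called lower in hac1hac5, and 3 of them in med8med25. PETE2 (AT1G20340), the main plastocyanin gene, was at 70187 and 75000 normalized counts in hac1hac5, 93129 and 77354 in med8med25, and 125358 and 133575 in Col-0. The change was -0.83 in hac1hac5 (SE 0.16, adjusted p = 0.0037) and -0.61 in med8med25 (SE 0.16, adjusted p = 0.023). PETC (AT4G03280), the Rieske protein of the cytochrome b6f complex, was at 14679 and 16101 in hac1hac5, 17655 and 16565 in med8med25, and 24854 and 24164 in Col-0. For both genes all mutant libraries were below Col-0, and hac1hac5 was below med8med25. In med8med25 against hac1hac5 neither PETE2 (0.23, adjusted p = 0.28) nor PETC (0.15, adjusted p = 0.21) was called.

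ATPC1 (AT4G04640), the gamma subunit of chloroplast ATP synthase, was at 27345 and 32320 in hac1hac5, 47610 and 40709 in med8med25, and 51142 and 51756 in Col-0. It was called lower in hac1hac5 (log2 change -0.79, SE 0.13, adjusted p = 0.002) and not in med8med25 (-0.22, SE 0.13, adjusted p = 0.25). PETE1, the minor plastocyanin gene, changed by -0.58 in hac1hac5 and -0.38 in med8med25. Its med8med25 value was -0.24 without the second library of that genotype and -0.51 without the first. None of the 3 med8med25 calls of this class held without each library in turn.

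The mutants were then compared with each other, which tests whether their changes differ. In med8med25 against hac1hac5, 9 of 50 genes were called lower and 9 higher, where 20.5% of all genes tested were called lower and 20.9% higher. The median log2 difference of the 50 genes was -0.07, beside -0.01 over all genes. The 18 calls are 36% of the 50 genes, where 41.4% of all genes tested were called, and 6 of the 18 held without each library in turn. Both med8med25 libraries were below both hac1hac5 libraries for 23 of the 50 genes, where this held for 35.2% of all genes tested.

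The genes called lower in med8med25 than in hac1hac5 were LHCA1, LHCA4, LHCB1.4, LHCB2.3, LHCB7, PSAE2, PSAF, PSAG and PSAN. All but LHCB1.4, LHCB2.3 and LHCB7 belong to photosystem I, of which 6 antenna and 12 core genes were tested. LHCA5 and PSAH1, also of photosystem I, were called higher. Of the genes called lower, LHCB1.4 differed most (1.89-fold, log2 difference -0.92, SE 0.16, adjusted p = 0.0023). LHCA4 (-0.69, SE 0.22, adjusted p = 0.033) and LHCA1 (-0.60, SE 0.18, adjusted p = 0.027) followed. PSAF differed by -0.57 (SE 0.15, adjusted p = 0.018) and PSAN by -0.54 (SE 0.14, adjusted p = 0.016). LHCB1.4, LHCB2.3, PSAE2 and PSAG kept their calls without each library. The calls of LHCA1 and LHCA4 were lost without any 1 of the Col-0 or hac1hac5 libraries (-0.68 to -0.51 and -0.76 to -0.62 over all libraries left out), that of PSAF without either Col-0 library or the second hac1hac5 library (-0.73 to -0.41), that of PSAN without the second hac1hac5 library, and that of LHCB7 without either hac1hac5 library (-0.60 to -0.29).

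The genes called higher in med8med25 than in hac1hac5 were LHCA5, LHCB4.3, RBCS1B, RBCS2B, PSAH1, PSBQ1, PSBY, PSBS and ATPC1. RBCS1B differed most, followed by LHCB4.3 (1.97-fold, log2 difference 0.98, SE 0.19, adjusted p = 0.0038), and both kept their calls without each library. ATPC1 differed by 0.57 (SE 0.13, adjusted p = 0.0095), and its call was lost without the first hac1hac5 library. PSBY (0.49, SE 0.15, adjusted p = 0.03) and PSBQ1 (0.42, SE 0.11, adjusted p = 0.018) led the photosystem II proteins. Their calls were lost without either Col-0 library or the first hac1hac5 library, and that of PSBY also without the second hac1hac5 or first med8med25 library (0.32 to 0.66). RBCS2B (0.51, adjusted p = 0.026) lost its call without any library but the second of med8med25 (0.31 to 0.72), as did PSAH1 (0.31, adjusted p = 0.048). PSBS (0.41) lost its call without either Col-0 library or the first hac1hac5 library (0.36 to 0.45), and LHCA5 (0.21) without these or the second med8med25 library (0.14 to 0.28).

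**Figure D4:**
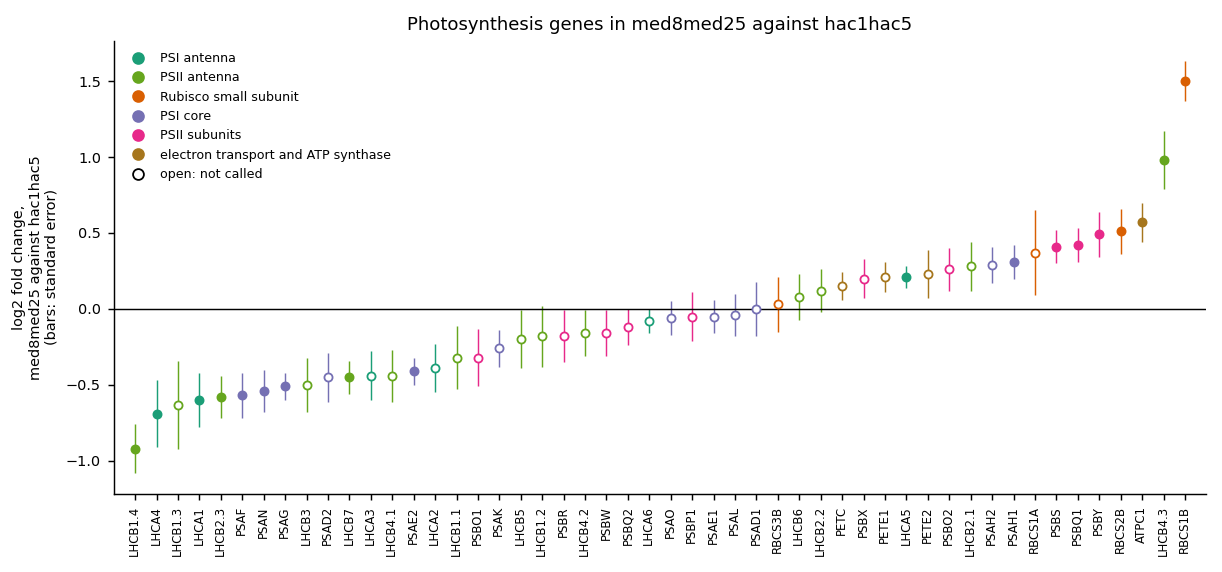
Log2 fold change in med8med25 against hac1hac5 (y axis, bars are standard errors) of 50 photosynthesis genes ordered by value and coloured by class; filled symbols were called by limma and open ones were not. RBCS1B lies highest, 2.84-fold higher in med8med25, and LHCB1.4 lowest at -0.92.

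Classes of genes differed in balance between the mutants. The photosystem I antenna sum divided by the photosystem I core sum was 1.53 and 1.44 in hac1hac5, 1.08 and 1.19 in med8med25, and 1.11 and 1.14 in Col-0. The ratio was thus higher in hac1hac5 than in the other genotypes. The sum of other photosystem II genes divided by the photosystem I core sum was 1.52 and 1.53 in hac1hac5, 1.65 and 1.74 in med8med25, and 1.39 and 1.4 in Col-0. Here both mutants were above Col-0. These ratios describe 2 libraries per genotype and were not tested.

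Single copies also changed their share within their family. RBCS1B held 1.62% and 1.69% of the small subunit signal in hac1hac5, 3.74% and 3.58% in med8med25, and 1.74% and 1.74% in Col-0. LHCB1.4 held 5.32% and 5.59% of the LHCB1 signal in hac1hac5, 4.21% and 3.8% in med8med25, and 8.47% and 8.55% in Col-0. LHCB2.3 held 24.1% and 23.4% of the LHCB2 signal in hac1hac5, 15.6% and 15% in med8med25, and 26.5% and 25.6% in Col-0. The share of RBCS1B was thus higher in med8med25 than in the other genotypes, and those of LHCB1.4 and LHCB2.3 were lowest there. PSBO2 held 19.9% and 20.9% of the PSBO signal in hac1hac5, 28% and 27.5% in med8med25, and 21.7% and 21.8% in Col-0. PSBQ1 held 37.4% and 38.1% of the PSBQ signal in hac1hac5, 47.3% and 46.6% in med8med25, and 35.1% and 36.4% in Col-0. The libraries of a genotype gave nearly the same shares even where the first med8med25 library had the higher levels, and the 6 copies plotted were chosen after their values were seen.

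**Figure D5:**
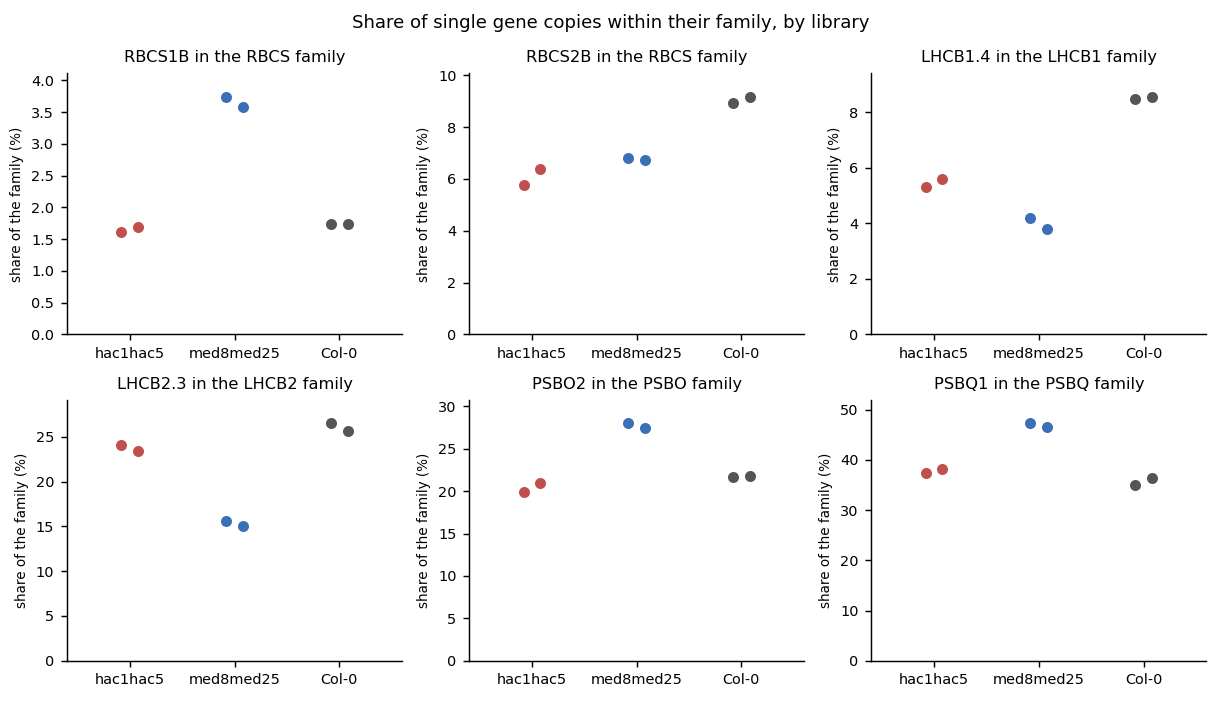
Share of a gene copy in the summed signal of its family (%) in each library of hac1hac5, med8med25 and Col-0, for RBCS1B, RBCS2B, LHCB1.4, LHCB2.3, PSBO2 and PSBQ1. The med8med25 points stand above both other genotypes for RBCS1B (3.74% and 3.58%), PSBO2 and PSBQ1, and below them for LHCB1.4 and LHCB2.3, while both mutants are below Col-0 for RBCS2B.

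The 250 bases before each annotated gene start were searched on both strands for letters known from promoters of light-regulated and clock-regulated plant genes. The G-box CACGTG was found before 10 of the 51 genes (19.6%), where 7.24% of 22591 promoters of the same length of tested protein-coding genes hold it. The I-box GATAAG was found before 12 genes (23.5%, against 12.3% of all promoters), and CCAATC, known from targets of the GLK factors, before 13 (25.5%, against 10.4%). The evening element AAAATATCT was found before 2 genes (3.92%, against 2.46%), and TATAAA before 23 (45.1%, against 46.7%). CCAATC was found before 3 of 6 photosystem I antenna genes and 7 of 15 photosystem II antenna genes, and before 0 of 4 small subunit genes and 0 of 12 photosystem I core genes. These matches are descriptions of the letters only.

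Promoters of 7 genes are printed because these genes carry contrasts given above. RBCS1B, LHCB1.4 and LHCB4.3 had the largest differences between the mutants, LHCA4 and LHCB2.3 were lower in med8med25 than in hac1hac5, RBCS2B had the largest small subunit decrease in hac1hac5, and PSBQ2 the largest decrease of its class in both mutants. Capitals mark the G-box, I-box and CCAATC letters on either strand, and no marked match overlaps another (RefSeq annotation of TAIR10.1, in the order printed chr5:15385321-15385570 on the minus strand, chr2:14524357-14524606 and chr2:16745378-16745627 on the plus strand, chr3:17495034-17495283 on the minus strand, chr3:10255656-10255905 on the plus strand, chr5:15382072-15382321 and chr4:2673244-2673493 on the minus strand).
RBCS1B: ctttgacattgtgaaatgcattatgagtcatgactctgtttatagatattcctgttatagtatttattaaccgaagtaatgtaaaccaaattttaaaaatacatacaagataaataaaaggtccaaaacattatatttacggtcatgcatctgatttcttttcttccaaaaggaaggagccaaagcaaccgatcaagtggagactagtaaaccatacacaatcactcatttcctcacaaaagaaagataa
LHCB1.4: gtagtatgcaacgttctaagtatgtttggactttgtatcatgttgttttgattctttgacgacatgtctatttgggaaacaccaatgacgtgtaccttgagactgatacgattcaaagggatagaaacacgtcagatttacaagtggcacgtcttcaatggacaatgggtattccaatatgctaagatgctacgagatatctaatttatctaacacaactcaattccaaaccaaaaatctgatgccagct
LHCB4.3: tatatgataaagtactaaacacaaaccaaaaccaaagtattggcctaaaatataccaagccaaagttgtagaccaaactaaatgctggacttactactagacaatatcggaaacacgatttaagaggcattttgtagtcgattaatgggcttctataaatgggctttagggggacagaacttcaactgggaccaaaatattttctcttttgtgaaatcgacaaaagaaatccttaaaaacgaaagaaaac
LHCA4: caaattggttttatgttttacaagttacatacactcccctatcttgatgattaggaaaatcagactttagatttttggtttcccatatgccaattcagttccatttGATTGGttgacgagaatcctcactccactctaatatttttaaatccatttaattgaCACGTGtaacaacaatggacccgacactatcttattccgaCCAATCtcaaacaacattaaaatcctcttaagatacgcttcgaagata
LHCB2.3: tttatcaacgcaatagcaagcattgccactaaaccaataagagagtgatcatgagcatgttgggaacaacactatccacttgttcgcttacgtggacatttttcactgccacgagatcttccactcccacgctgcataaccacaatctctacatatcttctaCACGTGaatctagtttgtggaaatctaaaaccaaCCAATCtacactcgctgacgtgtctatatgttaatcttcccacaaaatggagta
RBCS2B: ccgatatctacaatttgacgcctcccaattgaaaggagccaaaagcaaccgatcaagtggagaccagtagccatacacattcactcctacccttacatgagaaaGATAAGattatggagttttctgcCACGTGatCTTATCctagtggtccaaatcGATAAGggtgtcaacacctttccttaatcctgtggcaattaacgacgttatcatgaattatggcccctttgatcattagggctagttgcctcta
PSBQ2: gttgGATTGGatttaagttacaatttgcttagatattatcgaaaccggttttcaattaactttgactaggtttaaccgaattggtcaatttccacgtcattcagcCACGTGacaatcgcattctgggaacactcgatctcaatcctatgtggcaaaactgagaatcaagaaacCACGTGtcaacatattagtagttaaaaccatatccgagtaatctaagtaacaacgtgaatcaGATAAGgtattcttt
The windows of RBCS1B, LHCB1.4 and LHCB4.3 hold none of the 3 marked motifs. The other 4 hold a G-box, and all but RBCS2B of these also hold CCAATC. RBCS2B holds 3 I-boxes around its G-box, and PSBQ2 holds 1 I-box. The RBCS1B window ends in the letters gataa, which open the I-box, and bases past the annotated gene start were not searched. A match or its absence thus depends on where the annotated start lies. The genes printed were chosen for their values, so their matches do not stand for the 51 genes.

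Genes that work beside these proteins were read from lists. Their counts stand beside the shares over all genes tested, of which 21% were called lower and 17.4% higher in hac1hac5, and 14.3% lower and 12.3% higher in med8med25. Among 14 other genes of thylakoid electron transport, 10 were called lower and 0 higher in hac1hac5 (median log2 change -0.47, 5 calls held without each library), and 5 lower and 1 higher in med8med25 (median -0.28, 2 of 6 calls held). These calls are 71.4% and 42.9% of the list, against 38.4% and 26.6% of all genes tested. FD1, a leaf ferredoxin gene, was at 3945 and 3926 normalized counts in hac1hac5, 12416 and 11459 in med8med25, and 9696 and 10252 in Col-0. Like RBCS1B it was called lower in hac1hac5 (-1.34, SE 0.08, adjusted p = 7.3e-06) and higher in med8med25 (0.26, SE 0.08, adjusted p = 0.038), and the higher call was lost without any library but the second of med8med25 (0.20 to 0.32). FD2, the main leaf ferredoxin gene, was at 29603 and 31466 in hac1hac5, 26916 and 18799 in med8med25, and 39923 and 38768 in Col-0, and was called lower in med8med25 (-0.81, adjusted p = 0.0076; lost without either Col-0 library, -1.07 to -0.55 over libraries left out). ATPD, the delta subunit of chloroplast ATP synthase, changed by -0.98 in hac1hac5 (adjusted p = 4.3e-04), with -0.29 in med8med25 (adjusted p = 0.11). PSBTN, a small photosystem II subunit, changed by -0.83 in each mutant.

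Of 12 genes for antenna assembly, phosphorylation and related stress proteins, 8 were called lower and 0 higher in hac1hac5, and 4 lower and 1 higher in med8med25. These calls are 66.7% and 41.7% of the list, against 38.4% and 26.6% of all genes tested. ELIP2, an early light-induced relative of the antenna proteins, was at 10.1 and 3.229 normalized counts in hac1hac5, 110.8 and 105 in med8med25, and 13.46 and 23.45 in Col-0. It was higher in med8med25 (log2 change 2.53, SE 0.47, adjusted p = 0.0056), and its lower call in hac1hac5 (-1.46, adjusted p = 0.039) was lost without the second Col-0 or second hac1hac5 library (-2.15 to -0.76) and under 6 other settings. ELIP1 was at 105.4 and 122.6 in hac1hac5, 63.48 and 42 in med8med25, and 101.5 and 88.16 in Col-0, and was called lower in med8med25 (-0.86, adjusted p = 0.027). That call was lost without either Col-0 library or the second med8med25 library (-1.15 to -0.57). ALB3, which inserts antenna proteins into the thylakoid membrane, changed by -0.46 in hac1hac5 and -0.58 in med8med25, and OHP2, a one-helix relative, by -0.64 in hac1hac5, with -0.03 in med8med25 (adjusted p = 0.85).

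Of 17 regulators of photosynthesis genes, 6 were called lower and 2 higher in hac1hac5, and 4 lower and 1 higher in med8med25. These calls are 47.1% and 29.4% of the list, close to the 38.4% and 26.6% of all genes tested. HYH, a bZIP factor related to HY5, was at 326.5 and 369.8 normalized counts in hac1hac5, 336 and 405.7 in med8med25, and 147.8 and 174.7 in Col-0. It was called higher in both mutants (2.16-fold in hac1hac5 and 2.29-fold in med8med25, SE 0.14 each on the log2 scale, adjusted p = 5.3e-04 and 7.5e-04). SIG5, a sigma factor of the chloroplast RNA polymerase, was at 4610 and 5421 in hac1hac5, 2610 and 2472 in med8med25, and 2449 and 2332 in Col-0, and was called higher in hac1hac5 (1.06, adjusted p = 5.2e-05). PIF1, a phytochrome-interacting factor, and GNC, a GATA factor that promotes greening, changed by -0.60 and -0.59 in hac1hac5, with uncalled values of 0.06 and 0.05 in med8med25. PIF3 changed by -1.21 in med8med25 (adjusted p = 2.2e-04) and PIF4 by -0.48 (adjusted p = 0.003), which was not called without the second Col-0 library (-0.53 to -0.44). GLK2, which activates antenna genes, changed by -0.55 in hac1hac5 (adjusted p = 6.4e-04). The value of its partner GLK1 was -0.24 (adjusted p = 0.051). In med8med25 neither GLK2 (-0.20, adjusted p = 0.082) nor GLK1 (-0.06, adjusted p = 0.62) was called.

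Some markers of other tissues were also called, and their part in the results was not tested. Of 12 root markers, 5 were called lower and 0 higher in hac1hac5, and 2 lower and 4 higher in med8med25. These calls are 41.7% and 50% of the list, against 38.4% and 26.6% of all genes tested. Their summed level was 48236 and 55692 normalized counts in hac1hac5, 34647 and 33514 in med8med25, and 65468 and 64764 in Col-0, of which PYK10, a glucosidase of the root ER bodies, made up most. PYK10 changed by -1.18 and the thalianol gene THAS1 by -1.38 in med8med25, while CASP1 of the Casparian strip changed by 0.74 there. The root hair genes LRX1 and EXPA7 changed by -0.82 and -0.78 in hac1hac5. Of 10 markers of shoot epidermis and stomatal lineage, 5 were called lower in hac1hac5 and 4 in med8med25 and 0 higher in either (50% and 40% of the list, against 21% and 14.3% of all genes called lower), with sums of 9846 and 10154 in hac1hac5, 12962 and 11384 in med8med25, and 13364 and 14485 in Col-0. FAMA, which sets guard cell fate, changed by -1.56 and MUTE by -1.08 in hac1hac5. In med8med25 EPF1 was 2.3-fold lower and TMM changed by -1.06. The MUTE call was lost without the second Col-0 library or either hac1hac5 library (-1.36 to -0.80), and the EPF1 call without either Col-0 library (-1.47 to -0.94). No marker of either list was at 0 in any genotype.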

How the data were processed

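The authors deposited one table of normalized signal values for 32548 genes in 6 libraries, called normalized counts here. HISAT2, featureCounts, edgeR and TAIR10 are named in the submitters' processing notes; versions, strand setting and the rule for shared or overlapping reads are not given in the sources used here. Whole reads were recovered by inverting a quantile adjustment (99.29% of 195288 values matched within 1e-06) and served for depth only; PCR reads are not independent molecules, so depth covers counting error only.

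log2(deposited normalized count + 1) was fitted with limma-trend (limma 3.58.1, R 4.3.3) for the 23898 genes that reached a value of 1 in 2 or more libraries. Genotype was the sole term, and the 6 libraries were fitted together. The spread of each gene was drawn toward a trend with level over all genes (5.3 prior and 3 residual degrees of freedom). P-values are two-sided and Benjamini-Hochberg adjusted over all these genes, and genes were called at an adjusted p under 0.05. Fold changes are on the log2(value + 1) scale. The code was tested on simulated data. The 51 genes and the lists were chosen with earlier results of these data known. Named genes are the 2 called members with the largest change per class and comparison, members called higher in a mutant, every RBCS gene and, per list and direction, the 2 largest called changes; other names fill out their families. Sequences, exons and windows come from RefSeq TAIR10.1 with Biopython 1.88. Of the lists, 15 chloroplast-encoded genes were not analysed here. Alternatives were other pseudocounts, filters, scalings, fits, summed paralogs and leaving out each library.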

Additional observations from a re-analysis of the deposited data

How the results depend on the processing

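All 50 genes kept the sign of their change against Col-0 under the alternatives run on them, except LHCB1.1 (0.11) and LHCB1.3 (0.01) in hac1hac5 with equal totals; summing paralogs gave values for 30 of the 50. In med8med25 against hac1hac5, uncalled values near 0 changed sign: PSAD1 with equal totals (-0.02), RBCS3B (-0.04) and PSAD1 (-0.04) without the first hac1hac5 library, LHCB2.2 (-0.00), LHCB6 (-0.06), RBCS3B (-0.19) and PSAD1 (-0.23) without the first med8med25 library, and LHCA6 (0.01), PSAO (0.00), PSAL (0.07), PSAE1 (0.08) and PSBP1 (0.08) without the second. Over all libraries left out, these genes ran from -0.17 to 0.01 (LHCA6), -0.00 to 0.25 (LHCB2.2), -0.06 to 0.21 (LHCB6), -0.19 to 0.25 (RBCS3B), -0.23 to 0.24 (PSAD1), -0.18 to 0.08 (PSAE1), -0.15 to 0.07 (PSAL), -0.13 to 0.00 (PSAO) and -0.17 to 0.08 (PSBP1). The causes were not tested.

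Leaving out single libraries gave 20 to 46 of the 50 genes lower and 0 to 1 higher in hac1hac5, 12 to 45 lower and 0 to 1 higher in med8med25, and 4 to 16 lower and 2 to 13 higher in med8med25 against hac1hac5. Of all genes, 2616 to 5841 were then lower and 2587 to 4826 higher in hac1hac5, and 1430 to 3703 lower and 1129 to 3174 higher in med8med25; fits without a library assume that the lone library varies like the others. With equal totals, 2874 of all genes were lower in hac1hac5, and 1989 were lower and 5258 higher in med8med25. In med8med25 against hac1hac5, equal totals gave 19 lower genes of the 50 and voom 18. A fit of only the 2 genotypes compared gave 3 higher there and 1 higher in hac1hac5 (LHCB7). Summed paralogs left 5 higher there and 0 higher in med8med25.

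The labels do not say that equal replicate numbers pair libraries. Differences between the first and second library of a genotype correlated between genotypes at -0.03, -0.12 and -0.23 over 18948 genes. Each genotype gives only a single such difference, so these values cannot tell whether same-numbered libraries shared a harvest or batch. With the replicate block 34 genes were lower in hac1hac5, 32 in med8med25, and 7 lower and 4 higher in med8med25 against hac1hac5. Counting depth matters most for LHCB4.3, the lowest measured gene (68.58 to 364.4 normalized counts), and having 2 libraries per genotype limits every call.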
